A study of Homo sapiens with 6 samples.

Results

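The genes described here are 8 members of the RAS signalling machinery, chosen by name from the deposited count table after its NCBI Gene IDs were mapped to symbols. They are the RAS GTPases HRAS and NRAS, the related GTPases RRAS and RRAS2, the GTPase-activating proteins (GAPs) NF1 and RASA1, the exchange factor SOS1 and the kinase BRAF. They are 8 of 42902 Gene IDs in the table, and all 8 passed the filter on low counts that left 15866 genes for testing. The cells were PANC-1, a line grown from a human ductal carcinoma of the pancreas. In the 3 control libraries (shNC) the cells carried a control hairpin (shControl), with the genotype given as WT, and in the 3 knockdown libraries (shRRM2) they carried a short hairpin RNA against RRM2, the small subunit of ribonucleotide reductase. The study looked for genes that act downstream of RRM2, and no other treatment is given for either group. The labels say neither how many hairpins were used nor whether replicates were grown as separate cultures. The p-values therefore reflect only the variation among these libraries, some or all of which may be technical.

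RAS proteins are small GTPases at the inner face of the plasma membrane that switch between a GDP-bound and a GTP-bound state. Exchange factors such as SOS1, brought to activated receptors by adaptor proteins, load them with GTP, and GAPs such as neurofibromin (NF1) and RASA1 speed the hydrolysis of GTP and turn them off. GTP-bound RAS recruits RAF kinases, which start the MEK and ERK cascade, and also binds phosphoinositide kinases and exchange factors of the RAL GTPases. RAS signalling is the central oncogenic pathway of pancreatic ductal carcinoma. RRAS and RRAS2 share the GTPase fold, and RRAS is known for its part in integrin activation and cell adhesion.

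RNA of HRAS, NRAS, NF1 and SOS1 was lower in the knockdown, RNA of RRAS was higher, and RRAS2, RASA1 and BRAF did not pass the test. HRAS had the largest change of the 8, to 70.9% of the control level, and the other 3 genes that fell kept 81.9% to 88.0% of it. RRAS stood at 127.2% of its control level. These counts of 1 higher and 4 lower stand against a background in which 52.1% of all tested genes passed the same test (edgeR's quasi-likelihood test, adjusted p under 0.05), 26.0% higher and 26.1% lower. A share of 62.5% of 8 genes is near that background, so the counts are no result about these genes as a set. The groups did not overlap in level for 5 of the 8, against 57.8% of all tested genes. The median log2 fold change over the 8 was −0.12, beside −0.01 over all tested genes.

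The 6 libraries held 16606947 to 23300433 counts each, so a level of 1 CPM (counts per 1000000, after scaling of the library sizes) rests on 16.6 to 23.3 counts. RRM2 itself had 3342 to 4435 counts in shNC and 716 to 808 in shRRM2, or 20.2% of the level in shNC (log2 fold change −2.31, SE 0.0443, adjusted p = 3.72e-29). Of the epithelial markers, KRT8 and KRT18 had 12682 to 31909 counts per library, while the ductal keratin KRT19 had 0 to 6, EPCAM 3 to 16 and CDH1 11 to 52. The mesenchymal marker VIM had 9041 to 12630 counts per library. The 14 markers of fibroblasts, endothelium, immune, acinar and endocrine cells summed to 33 to 37 counts per library in shNC and 65 to 81 in shRRM2, with 13 to 54 from CDH5 and 4 to 14 from CD14. KDR, CD3E, PRSS1, CPA1, INS and GCG had 0 counts in every library. The part of these low counts in the results below was not tested, and in such bulk samples fewer expressing cells and less RNA per cell cannot be told apart.

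RAS proteins are anchored to membranes by their C-terminal end, whose coding sequence is shown for the 4 GTPases because the genes for the enzymes that act on it are described further on. Each line gives the last 75 bases of the coding sequence with its stop codon, 5′ to 3′ on the coding strand, from the GENCODE 29 transcripts (GRCh38). Capitals mark the last 4 codons before the stop, the CAAX box, to which a farnesyl or geranylgeranyl group is attached. HRAS and RRAS2 lie on chromosome 11, NRAS on chromosome 1 and RRAS on chromosome 19, all on the minus strand.
HRAS: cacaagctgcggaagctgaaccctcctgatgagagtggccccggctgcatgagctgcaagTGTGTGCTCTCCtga
NRAS: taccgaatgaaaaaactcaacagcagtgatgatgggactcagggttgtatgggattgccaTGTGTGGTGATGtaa
RRAS: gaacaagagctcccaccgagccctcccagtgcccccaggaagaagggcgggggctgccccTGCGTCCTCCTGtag
RRAS2: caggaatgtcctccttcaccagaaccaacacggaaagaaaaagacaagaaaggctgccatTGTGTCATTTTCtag
Every box opens with a cysteine codon (TGT or TGC), the residue that takes the lipid. The coding sequences of HRAS and NRAS have the same length, 570 bases for 189 codons, and were identical at 73.0% of positions, with no shared run longer than 14 bases. RRAS (218 codons) and RRAS2 (204 codons) were identical at 59.2% of aligned positions, with a longest shared run of 23 bases. Between the other pairs of these 4 coding sequences the longest shared run was 11 to 15 bases.

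HRAS (Gene ID 3265, chromosome 11, 532242 to 535576) encodes a RAS GTPase that carries palmitate beside its prenyl group. The control libraries held 1077, 1512 and 1004 HRAS counts, and the knockdown libraries 786, 863 and 829. Scaled to depth, this gave 61.5, 65.6 and 61.0 CPM against 44.5, 43.4 and 45.8 CPM. Every knockdown library lay below every control library, with a gap several times the spread within a group. Means were 62.7 ± 2.51 and 44.6 ± 1.18 CPM (SD, n = 3 each), a log2 fold change of −0.50 (SE 0.0562, 95% interval −0.61 to −0.38, adjusted p = 4.45e-09). Of all tested genes, 9.35% had a log2 fold change at or below this one. HRAS was also the only member that passed a test against a minimum change of 1.2-fold (edgeR's glmTreat, adjusted p = 0.000197), which 23.5% of all tested genes passed.

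NRAS (Gene ID 4893, chromosome 1, 114704469 to 114716771) encodes the close relative of HRAS. NRAS RNA stood at 130.3, 131.4 and 128.04 CPM in shNC and at 112.4, 103.8 and 103.2 CPM in shRRM2. The groups did not overlap, and the spread was wider in the knockdown, where replicate 1 was the highest. The log2 fold change was −0.29 (SE 0.0419, 95% interval −0.37 to −0.20, adjusted p = 5.39e-07), from 129.9 ± 1.70 to 106.4 ± 5.12 CPM (SD, n = 3 each).

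RRAS (Gene ID 6237, chromosome 19, 49635292 to 49640143) moved the other way. Its levels were 26.1, 25.3 and 24.4 CPM in shNC and 32.6, 33.5 and 30.2 CPM in shRRM2, with every knockdown library above every control library. This gave a log2 fold change of 0.35 (SE 0.0749, 95% interval 0.20 to 0.50, adjusted p = 0.000199). A rise of this size or more was seen in 21.2% of all tested genes.

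RRAS2 (Gene ID 22800, chromosome 11, 14277920 to 14364506), also called TC21, stood at 34.3, 32.4 and 32.9 CPM in shNC and at 31.3, 35.7 and 35.6 CPM in shRRM2. Knockdown replicate 1 lay below all controls and the other two lay above them, so the groups overlapped. The log2 fold change was 0.04 with a 95% interval of −0.10 to 0.19 (adjusted p = 0.621), which covers levels from 93.3% to 114.04% of the control. Of the 100-base words of the RRAS2 transcript, 9.46% also occur in the transcripts of other genes or in their reverse complements. Some RRAS2 reads may therefore have been assigned elsewhere or dropped.

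**Figure D1:**
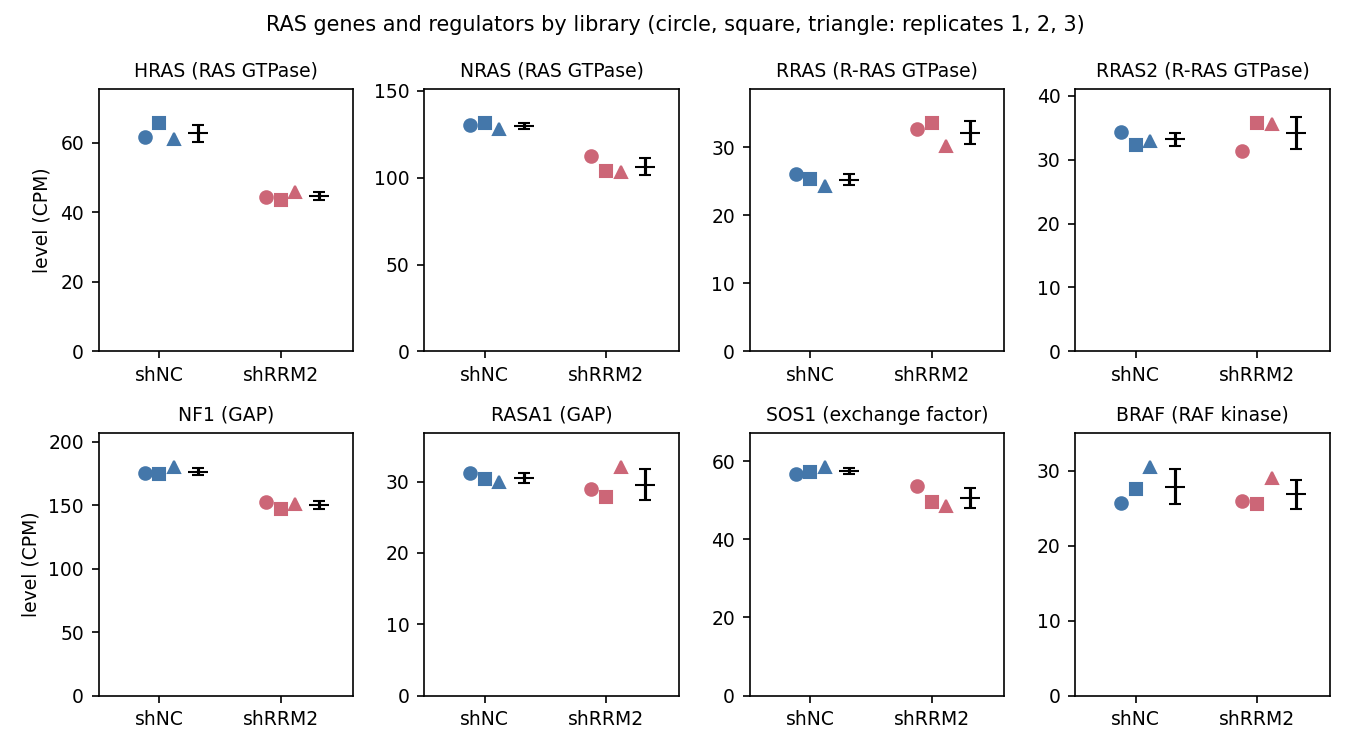
Level of each of the 8 genes in CPM (vertical axis, from 0) in the 3 shNC and the 3 shRRM2 libraries. Symbols are replicates 1 to 3, and black bars are the mean ± SD of a group. HRAS, NRAS, NF1 and SOS1 lie lower and RRAS higher in every shRRM2 library, while RRAS2, RASA1 and BRAF overlap between the groups.

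NF1 (Gene ID 4763, chromosome 17, 31094977 to 31377675) encodes neurofibromin, a large RAS GAP and tumour suppressor. Its counts were 3065, 4024 and 2959 in shNC and 2702, 2914 and 2732 in shRRM2. In CPM these were 175.1, 174.5 and 179.7 against 152.9, 146.7 and 150.9. The knockdown libraries were all lower, and the groups were well apart although the change was small. The log2 fold change was −0.23 (SE 0.0364, 95% interval −0.31 to −0.16, adjusted p = 1.95e-06), and 85.1% of the NF1 RNA of the control remained. The RefSeq annotation lists 12 pseudogenes named after NF1, none of which has a row in the count table. Of the 100-base words of the NF1 transcript, 0.357% occur in the transcript of another gene or in its reverse complement.

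RASA1 (Gene ID 5921, chromosome 5, 87267883 to 87391916), the other GAP, binds activated receptor kinases through its SH2 domains. It stood at 31.3, 30.3 and 29.9 CPM in shNC and at 28.9, 27.8 and 31.98 CPM in shRRM2. Knockdown replicate 3 was the highest library of all 6, and replicates 1 and 2 were the lowest. The log2 fold change was −0.05 with a 95% interval of −0.20 to 0.11 (adjusted p = 0.632), or 87.3% to 107.6% of the control. The gene overlaps CCNH on the opposite strand. Of the 100-base words of the RASA1 transcript, 3.75% also occur in CCNH transcripts or in their reverse complements. CCNH, the cyclin of the CDK-activating kinase, fell from 41.7 ± 2.23 to 33.3 ± 2.31 CPM (SD, n = 3 each; log2 fold change −0.32, adjusted p = 0.000186). The library kit kept the strand, but the strand setting of the counting is not given in the sources used here. The part of shared reads in either value was not tested.

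SOS1 (Gene ID 6654, chromosome 2, 38981549 to 39124868) encodes the exchange factor that loads RAS with GTP behind receptor tyrosine kinases. Its levels were 56.7, 57.2 and 58.4 CPM in shNC and 53.6, 49.6 and 48.5 CPM in shRRM2. The groups did not overlap, but knockdown replicate 1 came close to the controls. SOS1 had a log2 fold change of −0.18 (SE 0.0563, 95% interval −0.30 to −0.07, adjusted p = 0.00635). Without shRRM2 replicate 3 it was −0.15 and no longer passed (adjusted p = 0.0534).

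BRAF (Gene ID 673, chromosome 7, 140713328 to 140924929) encodes a RAF kinase that GTP-bound RAS activates. It stood at 25.7, 27.5 and 30.4 CPM in shNC and at 26.02, 25.5 and 29.1 CPM in shRRM2. The groups lay over each other, and the spread within shNC (SD 2.38) was wider than the difference of the means. For BRAF the log2 fold change was −0.05 with a 95% interval of −0.22 to 0.11 (adjusted p = 0.611). A change to as low as 86.1% or as high as 108.1% of the control therefore lies within the interval.

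**Figure D2:**
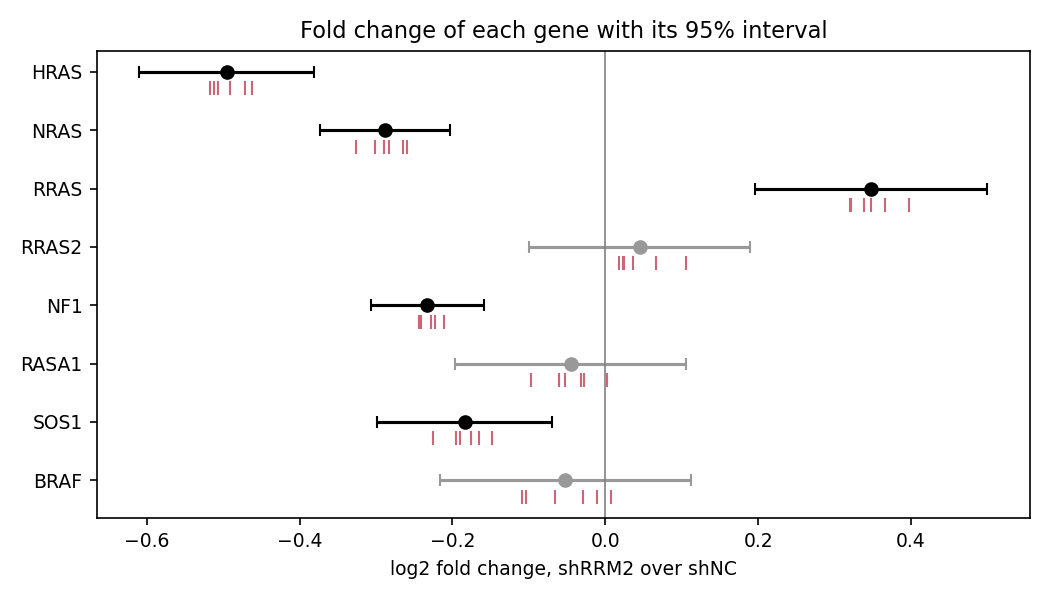
Log2 fold change of shRRM2 over shNC (horizontal axis) for each gene, with its 95% interval; black points passed the test and grey points did not. Red ticks under each gene are the values when 1 library is left out. HRAS lies at −0.50 and RRAS at 0.35, and the intervals of RRAS2, RASA1 and BRAF cross 0.

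Levels of different genes were compared per kilobase of merged exons (GENCODE 29 basic), as CPM per kilobase. In shNC the order was HRAS (47.6), NRAS (29.2), RRAS (24.2), NF1 (12.3), RRAS2 (11.9), SOS1 (6.74), RASA1 (6.11) and BRAF (1.94). NF1 and RRAS2 overlapped in range, and every other pair of neighbours was apart in all 3 libraries. In shRRM2, HRAS was at 33.8, RRAS at 30.8 and NRAS at 23.9 CPM per kilobase. At these lengths RRAS lay above NRAS in every knockdown library and below it in every control library. RRAS2 and NF1 also traded places in the knockdown, at 12.2 and 10.5 CPM per kilobase, and SOS1 and RASA1 overlapped there at 5.93 and 5.92. With the length of the longest coding transcript, chosen as an alternative after the data were examined, 4 of the 8 kept their place in the control order, HRAS, NRAS, RRAS and BRAF. NRAS (4449 bases) and RRAS (1044 bases) have the same length by both measures, so this alternative could not change their relative order. Before division by length, NRAS lay above RRAS in both groups. The means were 129.9 and 25.2 CPM in shNC, and 106.4 and 32.1 CPM in shRRM2. The change of order between NRAS and RRAS therefore rests on the lengths taken, and other lengths were not tested. With the longest coding transcript, RRAS2 lay above NF1, and RASA1 above SOS1, in both groups. Which transcripts PANC-1 uses is not known from the counts, so the order of these middle genes depends on the length taken. The place of BRAF may depend on it as well. Its lengths here were 14405 and 9578 bases, while an annotated BRAF transcript with a full coding sequence has 2549 bases. The level of BRAF at that length was not computed.

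**Figure D3:**
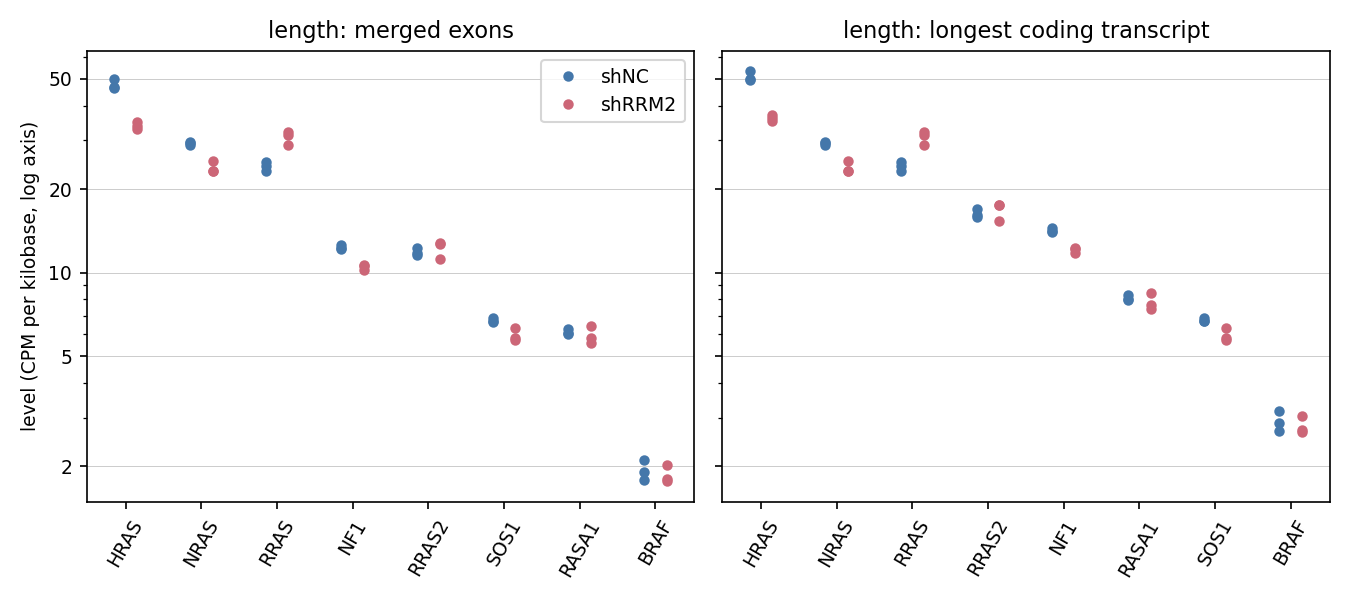
Level of each gene in CPM per kilobase (vertical log axis) in the 3 shNC (blue) and 3 shRRM2 (red) libraries, with the length of merged exons at left and of the longest coding transcript at right. At the lengths used, RRAS lies below NRAS in shNC and above it in shRRM2. For NRAS and RRAS both lengths are the same, so their points do not differ between the panels. The panels therefore do not test whether this order depends on length.

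Added up per kilobase of merged exons, HRAS and NRAS together went from 76.8 ± 2.23 to 57.8 ± 1.37 CPM per kilobase (SD, n = 3 each). RRAS and RRAS2 together went from 36.1 ± 1.09 to 43.0 ± 1.68. The sum of all 4 GTPases was 112.9 ± 2.52 in shNC and 100.8 ± 0.987 in shRRM2. Within this sum HRAS went from 42.2% ± 0.998 to 33.6% ± 1.18 and RRAS from 21.4% ± 0.531 to 30.5% ± 1.37. The sum of the GAPs NF1 and RASA1 was 18.4 ± 0.152 and 16.4 ± 0.564 CPM per kilobase. None of these sums and shares overlapped between the groups, and they rest on the same counts as the fold changes above.

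Ratios of 2 counts from the same library do not depend on how libraries are scaled. The ratio of HRAS to NRAS counts was 0.472, 0.499 and 0.476 in shNC and 0.396, 0.419 and 0.444 in shRRM2, so HRAS was lower relative to NRAS in every knockdown library. The log2 difference of this ratio was −0.20. The ratio of NF1 to HRAS counts was 2.85, 2.66 and 2.95 in shNC and 3.44, 3.38 and 3.30 in shRRM2, a log2 difference of 0.26. All these ratios rest on the same counts as the fold changes above. The ratio of RRAS to HRAS counts differed most between the groups. It pairs the only member that rose with the one that fell most, so its lack of overlap follows from their levels given above. This ratio lay between 0.386 and 0.423 in shNC and between 0.660 and 0.772 in shRRM2, 1.79-fold higher on average. The ratio of RRAS to RRAS2 was higher in shRRM2 (log2 difference 0.31) and that of NF1 to RASA1 lower (−0.19), both without overlap. In each of these 5 ratios the exact two-sided permutation test gave p = 0.1, the smallest that 3 libraries against 3 allow, or 0.14 adjusted over the 7 ratios computed. The ratios of SOS1 to NF1 (log2 difference 0.05, exact p = 0.4) and of BRAF to NRAS (0.24, exact p = 0.2) overlapped between the groups, with adjusted values of 0.4 and 0.233.

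**Figure D4:**
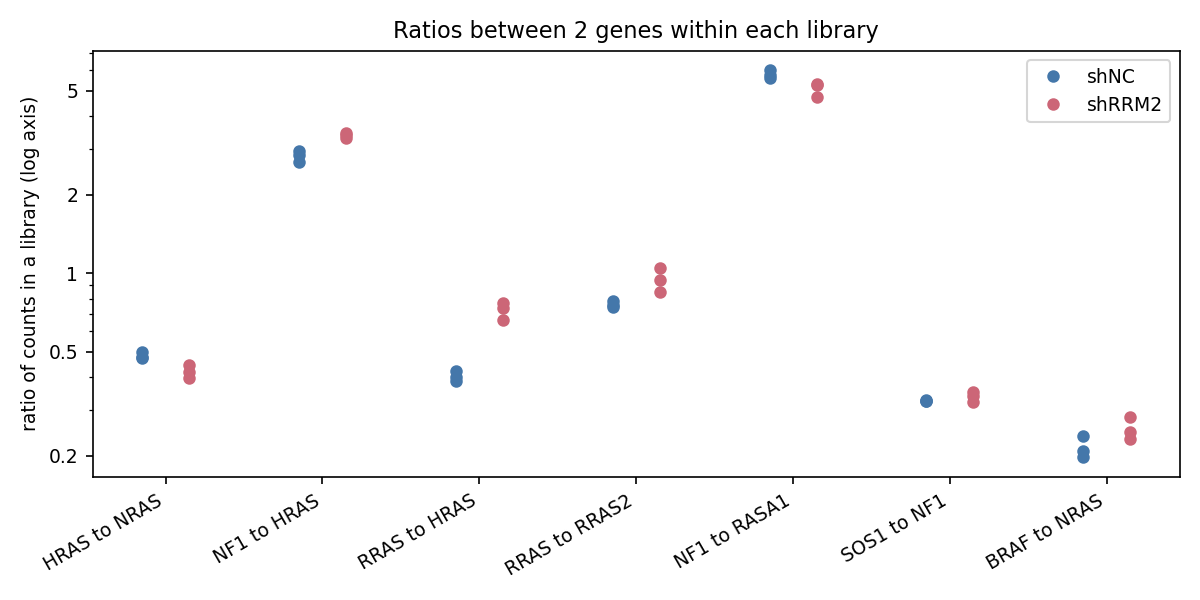
Ratio of the counts of 2 genes within each library (vertical log axis) for 7 pairs, in the 3 shNC (blue) and 3 shRRM2 (red) libraries. The points of RRAS to HRAS lie between 0.386 and 0.423 in shNC and between 0.660 and 0.772 in shRRM2, while those of SOS1 to NF1 and BRAF to NRAS overlap.

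The other genes of the pathway were taken from 7 lists of 99 genes in all, of which 84 passed the filter. Of these, 24 rose, 25 fell and 35 did not pass, a share called of 58.3% beside 52.1% of all tested genes, with a median log2 fold change of −0.02.

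Of 18 measured GTPases of the wider RAS family, 7 rose and 5 fell. RIT1, a RAS-like GTPase that acts on the RAF and ERK cascade, rose from 16.4 ± 2.36 to 26.8 ± 2.37 CPM (SD, n = 3 each; log2 fold change 0.72, SE 0.0962, adjusted p = 1.31e-07). NKIRAS2, which dampens NF-kB signalling, rose by 0.37. RASD2 and DIRAS1, which encode RAS-like GTPases, were lower at −0.57 and −0.46. Named after their values were seen, RALA and RALB, the RAL GTPases downstream of RAS, rose by 0.21 and 0.24, and RAP1A and RAP1B, which share many RAS effectors, were lower at −0.25 and −0.11. RAP1B was just past the threshold (adjusted p = 0.0486). The median of this list was 0.16.

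Among the other regulators the directions were mixed. Of 6 measured GAPs, RASA2 rose by 0.22 (adjusted p = 0.0154), and RASA3, a GAP that also acts on RAP GTPases, was lower at −0.32 (adjusted p = 1.82e-05). RASAL1 was not counted once in the 6 libraries, and RASAL3 had a total of 1 count. Of 4 measured exchange factors, SOS2, the relative of SOS1, was lower at −0.25, just past the threshold (adjusted p = 0.0497) and with overlapping groups. RASGRP3, named after its values were seen, rose by 1.71 from 0.423 ± 0.175 CPM (SD, n = 3), with 6 to 10 counts per shNC library and 21 to 29 per shRRM2 library.

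Of 14 measured adaptors that link receptors to SOS and related pathways, 5 rose and 3 fell. IRS1, the main docking protein of the insulin and IGF receptors, had the smallest adjusted p of the 84 genes. It rose from 43.5 ± 1.93 to 82.8 ± 1.53 CPM (SD, n = 3 each; log2 fold change 0.93, SE 0.0533, adjusted p = 3.81e-16). The docking protein GAB2 rose by 0.91, from 10.2 ± 0.180 to 19.2 ± 3.14 CPM. CRKL, an SH2 and SH3 adaptor, was lower at −0.53 (adjusted p = 5.19e-12), and IRS2 was lower at −0.27. GRB2, the adaptor that carries SOS1 to receptors, was at −0.06 and its 95% interval of −0.14 to 0.02 crossed 0.

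Of 14 measured kinases and scaffolds of the RAF, MEK and ERK cascade, 3 rose and 3 fell, and 8 did not pass. ARAF, a RAF kinase, was lower at −0.29 (adjusted p = 2.24e-06) and KSR1, a scaffold for RAF and MEK, rose by 0.52 (adjusted p = 7.72e-07). IQGAP1, a scaffold that also binds actin, rose by 0.23. PPP1CB, a phosphatase catalytic subunit that removes an inhibitory phosphate from RAF together with SHOC2 and MRAS, was lower at −0.38. MAP2K1 and MAP2K2, which encode the MEK kinases, were at −0.08 and −0.02 and did not pass.

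Of 12 measured genes on the list of effectors, 4 rose and 2 fell. The list was made by gene name, and the binding of each product to RAS was not tested. RASSF5, a RAS-binding protein that couples RAP and RAS to cell adhesion and the Hippo kinases, rose from 3.19 ± 0.878 to 8.16 ± 1.32 CPM (SD, n = 3 each; log2 fold change 1.33). RGL2, an exchange factor of the RAL GTPases, rose by 0.71 (SE 0.0671). PIK3CB, the beta catalytic subunit of the phosphoinositide kinase, fell from 61.1 ± 2.50 to 39.1 ± 2.18 CPM (log2 fold change −0.64, adjusted p = 4.92e-11). PIK3CA and PIK3CD, which encode other catalytic subunits, were at −0.09 and 0.05 and did not pass. RASSF1 was lower at −0.38, from counts per gene that do not separate its transcripts.

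Of 16 genes for the lipid modification, transport and turnover of RAS proteins, all measured, 3 rose, 9 fell and 4 did not pass, with a median of −0.16. Over all tested genes, 26.0% rose and 26.1% fell, with a median of −0.01, and whether the list differs from them was not tested. LYPLA1, a thioesterase that can take palmitate off RAS proteins, fell from 106.2 ± 6.06 to 72.4 ± 1.79 CPM (SD, n = 3 each; log2 fold change −0.55, SE 0.0479, adjusted p = 1.12e-11). PGGT1B, the beta subunit of geranylgeranyl transferase, fell from 24.7 ± 0.0593 to 17.4 ± 0.583 CPM (−0.51). ABHD17A and ABHD17C, depalmitoylating enzymes, rose by 0.23 and 0.27. The other members named here were chosen after their values were seen. FNTA, the alpha subunit that both prenyltransferases share, was lower at −0.23, and FNTB, the farnesyltransferase beta subunit, at −1.19 from 17 to 26 counts per shNC library. RCE1, the protease that trims the CAAX box after the lipid is added, was lower at −0.24, while ICMT, the methyltransferase that acts next, rose by 0.21. ZDHHC9, a palmitoyltransferase of HRAS and NRAS, was lower at −0.26. LZTR1 and CUL3, parts of a ubiquitin ligase that acts on RAS proteins and RIT1, were lower at −0.34 and −0.23.

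**Figure D5:**
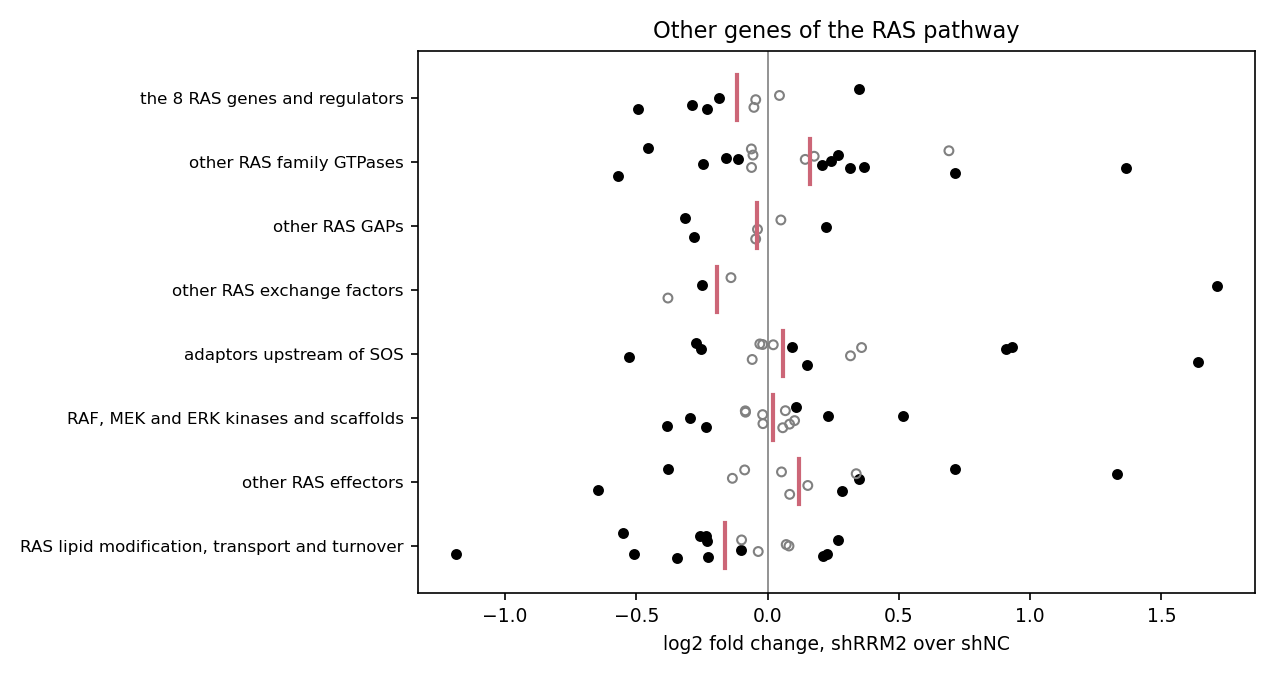
Log2 fold change of shRRM2 over shNC (horizontal axis) for the 8 genes and for the measured genes of 7 other lists of the pathway, 1 point per gene, with vertical jitter for legibility. Filled points passed the test, open points did not, and red bars are medians. The medians run from −0.19 to 0.16, and each list holds genes on both sides of 0.

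Over the 6 libraries, the gene of these lists or of the other members whose log2 CPM was most like that of HRAS was PIK3CB (Pearson r = 0.993). For NRAS it was RAP1A (0.990), for RRAS RGL2 (0.974), for NF1 LYPLA1 (0.993) and for SOS1 NRAS (0.967). These values describe 6 points in 2 groups among 91 genes compared, and any pair that differs between the groups in the same direction has a high r. For RRAS2, RASA1 and BRAF, which did not pass the test, the most alike were MAP2K2 (0.737), DAB2IP (0.737) and NKIRAS1 (0.940).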

How the data were processed

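The authors deposited whole-number read counts for each NCBI Gene ID, made from directional poly(A)-selected libraries per the labels' protocols, with fastp 0.23.4, featureCounts and the hg38 build per the submitters' processing notes. Which aligner, annotation, strand setting and multi-mapping rule were used is not given in the sources used here. Of 42902 Gene IDs, 40120 matched a symbol in RefSeq (GRCh38.p14). The unmatched IDs, with 1.25% of the counts, stayed in the tests. Columns named si-RRM2 were matched to the shRRM2 samples by gene name and number, although the prefixes si and sh differ. The hairpin named above is taken from the sample labels, and the counts cannot tell which prefix is right.

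Genes were filtered with filterByExpr, scaled with TMM and tested with edgeR 4.0.16 in R 4.3.3 (robust quasi-likelihood fit, group alone, two-sided). P-values were adjusted by Benjamini-Hochberg over the 15866 genes tested (threshold 0.05). The SE is the size of the log2 fold change over the square root of F. The fit was tested on simulated data with few changed genes, where the share of false calls among the calls was above the nominal level; that share is not known for the real calls. Alternatives included DESeq2 1.42.0 and limma-voom (limma 3.58.1). Libraries of a group differed by more than sampling noise (chi-square per degree of freedom 2.23 to 3.87), and none was counted as a duplicate.

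The members and lists were chosen with earlier results of these data known. Besides the members, up to 2 genes with the largest rise and 2 with the largest fall per list were named, among those past the threshold with a mean of at least 5 CPM in a group. A gene picked by this rule is not reported here. Also named were RRM2, the most alike gene of each member, and genes that overlap a member.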

Additional observations from a re-analysis of the deposited data

How the results depend on the processing

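Under RLE factors, library size alone, no filter, a filter of 1 CPM in 3 libraries, DESeq2, limma-voom, an adjusted p of 0.01 and the replicate block, the same gene was higher (RRAS) and the same 4 were lower. Against a minimum 1.2-fold change, 0 members were higher and 1 was lower (HRAS). NRAS, RRAS, NF1 and SOS1 kept their log2 fold changes of −0.29, 0.35, −0.23 and −0.18 by construction but did not pass it (adjusted p from 0.149 for RRAS upward), and 11 other pathway genes were higher and 6 lower. Leaving out 1 library gave 1 member higher and 3 to 4 lower, the loss being SOS1 without shRRM2 replicate 3, and 21 to 26 other pathway genes higher and 21 to 23 lower. The sign of 2 values that had not passed turned, and the cause was not tested. RASA1 ran from −0.10 to 0.0027 (without shRRM2 replicate 2) and BRAF from −0.11 to 0.0080 (without shNC replicate 3). HRAS ran from −0.52 to −0.46 over its 14 alternatives and RRAS from 0.32 to 0.40. The HRAS to NRAS difference ran from −0.25 to −0.16 and the NF1 to HRAS difference from 0.22 to 0.29 over the libraries left out.

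Replicate numbers are shared between the groups, but same-numbered libraries did not deviate together over the tested genes (correlations of −0.0068, −0.0034 and −0.021). These correlations cannot tell whether same-numbered libraries were grown or prepared together. With the replicate block the counts were 1 higher and 4 lower among the members and 24 and 25 among the other pathway genes, as without it. The ratio differences averaged over same-numbered libraries were −0.20 and 0.26. At this depth and replicate spread the intervals of RRAS2, RASA1 and BRAF still hold changes of up to 0.19, −0.20 and −0.22 on the log2 scale.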

Other observations

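Some genes lie inside or across the members and were counted separately. EVI2B, a membrane protein gene of blood cells that sits within NF1 on the opposite strand, was counted 34, 45 and 27 times in the control libraries and 110, 103 and 77 times in the knockdown libraries. It rose from 1.84 ± 0.178 to 5.22 ± 0.985 CPM (SD, n = 3 each; log2 fold change 1.49, SE 0.213, adjusted p = 3.92e-07 in edgeR's test), while NF1 fell. Its neighbours within NF1, EVI2A and OMG, stayed below the filter with 1 to 9 and 1 to 8 counts per library. LOC644285, a noncoding gene, lies within the span of RASA1 and also within that of CCNH, which fell as given above. It was counted 15, 28 and 13 times in the controls and 1, 2 and 2 times in the knockdown (log2 fold change −3.34, SE 0.613, adjusted p = 2.39e-05). LRRC56, whose span holds HRAS on the opposite strand, stood at 4.09 ± 0.242 CPM in shNC and at 4.17 ± 0.588 CPM in shRRM2 (SD, n = 3 each; log2 fold change 0.03, adjusted p = 0.910). The strand setting of the counting is not given, and reads of a gene and of a partner on the opposite strand cannot be told apart without it.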
